A study of Mus musculus with 18 samples.

Results

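Mitochondrial protein import genes were followed in messenger RNA of mouse metaphase II (MII) oocytes, the mature egg arrested before fertilisation. The genes were those with a mouse symbol beginning Timm or Tomm and a number, together with Pam16, Dnajc19, Hspa9, Hspd1, Hspe1, Hscb, Grpel1, Grpel2, Pmpca, Pmpcb, Chchd4, Gfer, Samm50 and Mtx1. The rule found 40 of 55471 gene IDs, of which 39 were protein-coding and 1, Tomm6os, was a long noncoding RNA on the strand opposite Tomm6. Of the 40, 37 had enough counts to be tested, and Tomm40l, Tomm6os and Tomm20l did not. There were 3 libraries of Isca2 -/- oocytes, called KO, and 3 libraries of wild-type oocytes, called WT. ISCA2 helps to build iron-sulfur clusters in mitochondria, and the study asked about its role around implantation. The sources used here do not give strain, age, the number of oocytes per library or the way the Isca2 -/- oocytes were obtained. Nothing in the labels says that the replicates came from separate animals. The p-values therefore measure only the spread among these libraries, which may be technical.

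Most mitochondrial proteins are made in the cytosol and carried across the mitochondrial membranes. Precursors enter through the TOM complex of the outer membrane. The TIM23 complex and its motor then pull those with a presequence into the matrix, where a peptidase removes the presequence and the Hsp60 and Hsp10 chaperonin helps them fold. Small TIM chaperones hand membrane carriers to the TIM22 complex, and the Mia40 relay, whose gene is Chchd4 in the mouse, traps small cysteine-rich proteins in the intermembrane space. The mature oocyte is nearly silent in transcription and holds a large store of maternal RNA and many mitochondria.

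The libraries held between 17792157 and 30240350 expected counts, and the correlation of log2 CPM (counts scaled to library size) between libraries other than WT replicate 3 was 0.969 to 0.984. WT replicate 3 stood apart, with correlations of 0.917 to 0.931. The summed CPM of 12 macrophage and immune markers was 9.38, 5.93 and 11.0 in KO libraries, against 10.6, 8.85 and 2381 in WT libraries, so the high value was that of WT replicate 3. As a sum, the 12 oocyte markers were abundant in every library, with 18989 to 20468 CPM in KO and 20116 to 20765 CPM in WT. Single markers differed more. Gdf9 was higher in every KO library, Ooep and Kit were lower, and the others overlapped. Zp2 had 2135 CPM in WT replicate 3 against 602 and 111 CPM in WT replicates 1 and 2, and Zp3 1250 against 352 and 264 CPM. Figla had only 0.175 to 2.28 CPM. The 12 granulosa and cumulus markers summed to 77.2, 106 and 162 CPM in KO against 83.9, 77.3 and 72.4 CPM in WT, of which Cyp19a1 made 52.0 to 60.3 CPM in KO and 51.2 to 64.7 CPM in WT. Without Cyp19a1 the other 11 summed to 16.8, 47.2 and 110.2 CPM in KO and 20.2, 12.6 and 21.2 CPM in WT. Of the 8 tested markers, 3 (Fshr, Inhbb and Hsd17b1) were higher in every KO library than in every WT library. Over all genes, 12.4% did not overlap in either direction. Inha, Inhba, Cyp19a1, Nr5a2 and Has2 overlapped, Nr5a2 with 8.67, 12.2 and 11.3 CPM in KO and 11.1, 12.2 and 7.76 CPM in WT. Ptx3, not tested, had 3.28 CPM in WT replicate 3. Tnfaip6, also not tested, had 6.44 CPM in KO replicate 2, 3.66 CPM in WT replicate 3 and 0 CPM in the other libraries. Fshr (9, 0 and 4 counts in WT), Inhbb (1, 0 and 0) and Hsd17b1 (25, 0 and 14) passed the count filter only through KO. Their separation and p values here are therefore no evidence of a difference. Inhbb, an inhibin and activin subunit of granulosa cells, had 2.15, 4.87 and 13.0 CPM in KO against 0.044, 0 and 0 CPM in WT (adjusted p = 0.21 by edgeR, and 0.026 without WT replicate 3), and Hsd17b1 2.15, 12.5 and 20.1 CPM in KO against 1.10, 0 and 0.48 CPM in WT. Amh and Foxl2 were at or near 0 throughout. The 5 red blood cell markers summed to at most 1.16 CPM. Isca2 itself had 2.32, 3.14 and 4.23 CPM in the libraries labelled KO, against 0.61, 0.53 and 5.24 CPM in WT. The targeted gene was thus not lower in the libraries labelled KO, with a log2 fold change of KO over WT of 0.59 by edgeR (SE 0.89, adjusted p = 0.907). Leaving out WT replicate 3 gave 2.48 (SE 0.55, adjusted p = 0.0969). The sources used here do not give the deleted part of Isca2, and counts over the whole gene do not test the label.

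Upstream sequences are shown for the pair of genes with the highest levels, Timm8b and Timm23, for Timm17a, which had the smallest p of the 37 genes in 6 libraries, and for Chchd4, which had the smallest p without WT replicate 3. Each is the 250 bases before the annotated start in RefSeq (GRCm38.p6), written along the gene's strand. Capitals mark matches, on either strand, to an ETS core (CCGGAAG), an NRF1 core (CGCANGCGC), a GC box (GGGCGG) or a CCAAT box (CCAAT). Timm8b lies at chr9:50603651-50603900 on the plus strand. Timm23 lies at chr14:32201892-32202141, Timm17a at chr1:135313738-135313987 and Chchd4 at chr6:91473424-91473673, all on the minus strand.
Timm8b: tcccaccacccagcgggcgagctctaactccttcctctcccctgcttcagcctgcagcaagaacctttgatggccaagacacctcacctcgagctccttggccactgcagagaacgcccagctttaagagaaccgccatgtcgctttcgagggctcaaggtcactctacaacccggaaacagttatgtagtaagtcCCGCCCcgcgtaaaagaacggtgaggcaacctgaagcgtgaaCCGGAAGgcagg
Timm23: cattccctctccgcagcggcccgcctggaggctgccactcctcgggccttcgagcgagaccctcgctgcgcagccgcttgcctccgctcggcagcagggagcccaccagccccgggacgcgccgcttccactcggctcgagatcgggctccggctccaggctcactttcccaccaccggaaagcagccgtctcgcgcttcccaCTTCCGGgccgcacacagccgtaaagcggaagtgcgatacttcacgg
Timm17a: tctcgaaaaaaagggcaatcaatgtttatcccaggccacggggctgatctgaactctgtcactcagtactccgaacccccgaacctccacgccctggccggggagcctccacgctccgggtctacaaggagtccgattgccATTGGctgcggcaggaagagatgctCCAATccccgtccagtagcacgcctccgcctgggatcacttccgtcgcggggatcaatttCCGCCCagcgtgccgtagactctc
Chchd4: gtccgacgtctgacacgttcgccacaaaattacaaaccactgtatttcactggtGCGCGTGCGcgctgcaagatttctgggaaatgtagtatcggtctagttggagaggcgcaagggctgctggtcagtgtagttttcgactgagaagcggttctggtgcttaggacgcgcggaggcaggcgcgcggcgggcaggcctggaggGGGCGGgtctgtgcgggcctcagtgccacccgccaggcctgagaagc

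Hspd1 and Hspe1, which encode Hsp60 and Hsp10, stand head to head on chromosome 1, and the 215 bases between their listed starts, chr1:55087933-55088147, are shown on the plus strand, which is the strand of Hspe1. Another annotated Hspd1 start lies inside Hspe1, so this interval is also within the span of a longer Hspd1 transcript. Capitals mark GC boxes and, in the long run, a heat shock element (GAANNTTC) that overlaps both ETS matches.
Hspd1-Hspe1: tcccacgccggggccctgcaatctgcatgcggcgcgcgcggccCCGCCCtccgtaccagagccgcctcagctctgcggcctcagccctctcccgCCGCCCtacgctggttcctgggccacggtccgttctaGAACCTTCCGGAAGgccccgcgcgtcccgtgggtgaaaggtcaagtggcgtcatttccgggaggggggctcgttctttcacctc

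Matches were counted in the 250 bases before the start, taken from RefSeq, for 33 of the 39 protein-coding genes. Windows on chromosome 18, where Hspa9, Grpel2 and Timm21 lie, were left out here. Hscb, Tomm40l and Tomm7 had no entry. The ETS core was found for 14 of the 33 genes, among them Timm8b, Timm23, Hspd1, Hspe1, Grpel1 and Tomm22. Of 32851 windows of the same length outside chromosome 18, 6.91% held it. The GC box was found for 20 genes, against 32.7% of all windows. The NRF1 core was found for 5 genes (Chchd4, Hspd1, Pam16, Timm13 and Tomm20), against 5.19% of windows, and the heat shock element for 3 (Hspd1, Hspe1 and Timm9), against 6.69%. CCAAT was found for 10 genes, against 33.8%, a TATA box (TATAAA) for 3, against 12.4%, and a YY1 site (AAGATGGCG) for 0, against 0.606%. A gene with several windows was counted when any of them matched, whereas the share is per window. Hspd1 and Hspe1 share the interval shown above, so its ETS, GC box and heat shock matches count for both genes. These are matches of letters, with no measurement of binding.

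Levels between genes were compared in TPM, which the authors scaled to transcript length. The 40 genes together had 3086, 3063 and 3046 TPM in KO libraries and 3046, 3000 and 2932 TPM in WT libraries, and their share of all counts was 0.166% to 0.170% in KO and 0.160% to 0.163% in WT. Timm8b, a small TIM chaperone, had a mean of 855 TPM and Timm23, the channel of the presequence translocase, 555 TPM, and these 2 genes made up 46.5% of the summed TPM. Pam16, a regulator of the import motor, had 269 TPM, Hspe1 249 TPM, Timm21, a subunit that links TIM23 to TOM, 207 TPM and Hscb, a co-chaperone of iron-sulfur cluster transfer, 163 TPM. These 6 genes held 75.8% of the sum. Of 39 neighbouring pairs in the order of levels, 36 overlapped in their range over libraries. Timm8b lay above Timm23 and Timm23 above Pam16 in every library, and Hscb lay above Hspd1.

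The range within one machine was wide. By the mean of 6 libraries, 12 genes lay above 50 TPM, 13 between 5 and 50 TPM and 15 below 5 TPM. WT replicate 3 raised some of these means. Tomm6 had 150.6 TPM there and 20.4 to 64.4 TPM in the other libraries, and Tomm40 7.25 TPM against 0.43 to 1.48 TPM. Among the low ones were central parts: Tomm40, the channel of the outer membrane, had a mean of 2.03 TPM, Tomm20, a presequence receptor, 4.02 TPM, Tomm70a, a receptor for carrier precursors, 0.865 TPM, Timm22, the channel for carriers, 1.05 TPM, Chchd4 0.717 TPM and Pmpca, a subunit of the processing peptidase, 0.838 TPM. The median of the 37 tested genes was 10.7 TPM, against 6.72 TPM over all 13680 tested genes. Tomm20l, a relative of Tomm20, had 0 counts in all 6 libraries. A count of 0 allows up to 0.106 to 0.168 CPM in the KO libraries and 0.103 to 0.146 CPM in the WT libraries (3 counts, counting error only). Tomm40l, a relative of Tomm40, was listed at 0.18, 0.57 and 0 TPM in KO and at 0, 0 and 0.35 TPM in WT, and Tomm6os at 0 in every library but WT replicate 3 (0.02 TPM).

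**Figure D1:**
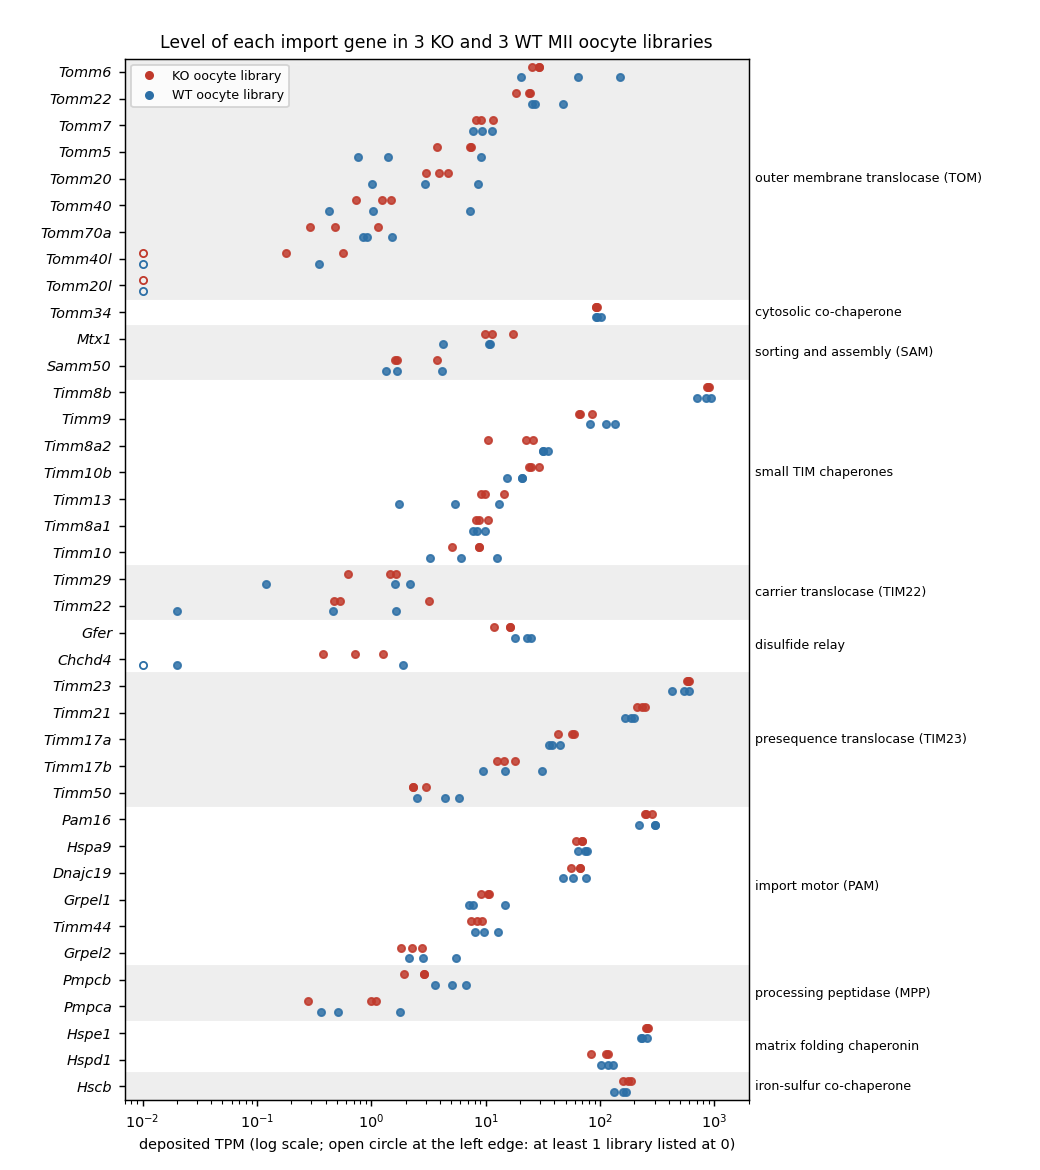
Deposited TPM of the 39 protein-coding import genes on a log axis, grouped by role, with 1 point per library (KO above, WT beneath it in each row); open circles mark a listed 0. Timm8b and Timm23 lie between 430 and 932 TPM, while Tomm40, Timm22, Tomm70a, Pmpca and Chchd4 lie below 8 TPM in every library.

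No import gene passed the test between KO and WT in the 6 libraries. With edgeR, 0 of 37 had an adjusted p under 0.05 (smallest 0.766), and 2 of 13680 genes did (0.0146%). DESeq2, which called 0.738% of all genes, and limma-voom, which also called 0.0146%, called 0 of the 37. Without adjustment, p was under 0.05 for 3 of 37 genes (Timm17a and Timm21 higher in KO, Timm9 lower), where 6.19% of all genes reached it. KO and WT values did not overlap for 4 of 37 genes (Hspe1 and Timm17a higher, Timm8a2 and Gfer lower), against 12.4% of all genes. Both shares were near the background. The median log2 fold change of the 37 genes was 0.08, with 21 above 0, and that of all tested genes was -0.04. With library totals in place of TMM scaling the import median was -0.03 and that of all genes -0.10, so the sign of the median depended on the scaling. The fold change was under 1.5 in either direction for 28 of the 37 genes, and 20 lay within 1 SE of 0. In RNA of whole samples, fewer cells of a kind and less RNA per cell cannot be told apart.

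**Figure D2:**
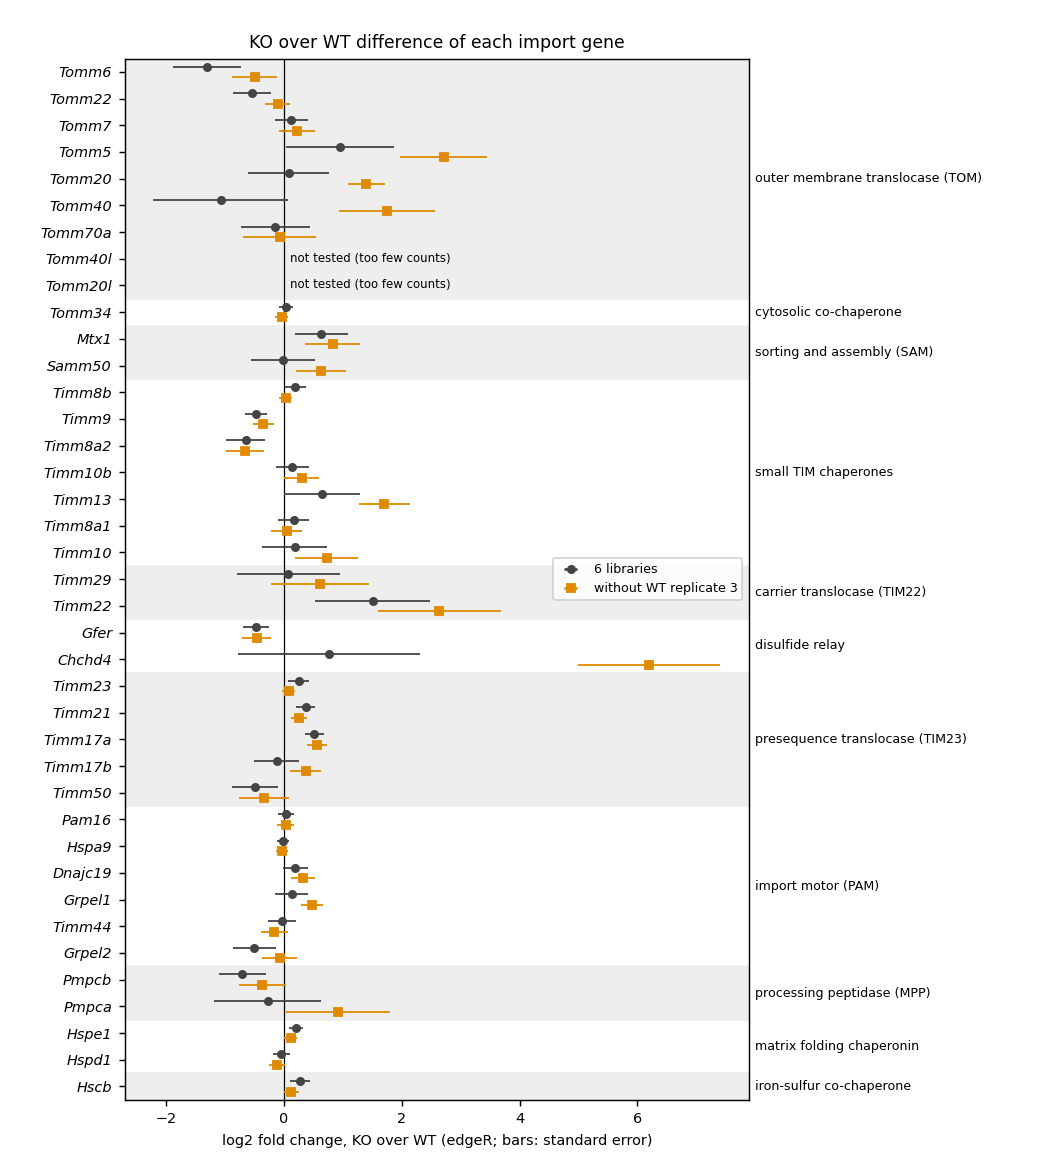
log2 fold change of KO over WT with its standard error for each import gene, from 6 libraries (circles) and without WT replicate 3 (squares). With 6 libraries the values lie between -1.30 and 1.505, and without WT replicate 3 Chchd4 stands at 6.20 with the other genes between -0.66 and 2.72.

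In the TOM complex, summed TPM was 64.1, 76.7 and 75.1 in KO against 106, 58.3 and 235 in WT, and the groups overlapped. Tomm6, a small subunit that stabilises the complex, carried most of that spread, with 11.8, 9.96 and 12.2 CPM in KO and 23.7, 8.27 and 51.7 CPM in WT. The KO libraries were close together and the WT libraries lay on both sides of them (log2 fold change -1.30, SE 0.58, adjusted p = 0.766, edgeR). Leaving out WT replicate 3 gave -0.50 (SE 0.38). Tomm6 overlaps Tomm6os, Frs3 and Usp49 in the annotation, and the sources used here do not say whether counting used strand. Tomm22, the central receptor, had 12.8, 15.5 and 13.9 CPM in KO and 14.5, 15.8 and 31.3 CPM in WT. WT replicate 3 stood alone there, and the log2 fold change was -0.55 (SE 0.32) with it and -0.11 (SE 0.21) without it. It was 0.13 (SE 0.28) for Tomm7, another small subunit, and -0.14 (SE 0.59) for Tomm70a in 6 libraries. Tomm34, a cytosolic co-chaperone of precursors, had 92.6, 93.1 and 94.3 TPM in KO and 94.8, 102 and 91.7 TPM in WT. In the sorting and assembly machinery of the outer membrane, the log2 fold change was 0.64 (SE 0.45) for Mtx1 and -0.02 (SE 0.54) for Samm50, its channel, which had 0.63 (SE 0.43) without WT replicate 3.

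The 7 small TIM chaperone genes summed to 1028 ± 3.22 TPM in KO and 1011 ± 75.4 TPM in WT (SD, n = 3 each). Timm8b, the most abundant, had 191, 195 and 202 CPM in KO and 175, 209 and 129 CPM in WT, so WT replicate 3 was the lowest and the groups overlapped. Timm9, which forms the main carrier chaperone with Timm10, had 36.1, 27.7 and 29.9 CPM in KO against 44.7, 35.0 and 49.8 CPM in WT. The groups overlapped by 1 library, with a log2 fold change by edgeR of -0.47 (SE 0.19, adjusted p = 0.766). Timm10 had 1.80, 3.08 and 3.28 CPM in KO and 1.10, 2.19 and 3.86 CPM in WT, and Timm10b, a peripheral subunit that docks the chaperone on TIM22, had 8.63, 6.77 and 6.66 CPM in KO and 6.48, 5.45 and 8.04 CPM in WT. Neither pair of groups was separate.

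Timm8a2 had 13.7, 12.1 and 5.96 CPM in KO against 16.1, 17.2 and 16.5 CPM in WT. All KO libraries lay under all WT libraries, with KO replicate 3 far below the rest, with a log2 fold change by edgeR of -0.65 (SE 0.33, adjusted p = 0.767). Without KO replicate 3 it was -0.36. Its relative Timm8a1, a partner of Timm13, had 9.73, 7.73 and 8.78 CPM in KO and 7.49, 9.43 and 6.45 CPM in WT, with overlap. Set against each other within a library, Timm8a2 had 2.48, 2.75 and 1.21 times the TPM of Timm8a1 in KO and 3.81, 3.21 and 4.56 times in WT, and these ratios did not overlap. They were among 14 such ratios, which were picked after values were seen and were not tested.

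Timm17a gave the smallest p of all import genes in 6 libraries. It encodes a core subunit of the TIM23 channel, and its upstream sequence is shown above. It had 27.0, 29.5 and 27.6 CPM in KO against 19.8, 18.2 and 20.8 CPM in WT. The groups were separate and tight, and WT replicate 3 lay with the other WT libraries. By edgeR KO was higher by a log2 fold change of 0.52 (SE 0.16, unadjusted p = 0.0127, adjusted p = 0.766), and by 0.56 without WT replicate 3 (SE 0.17, adjusted p = 0.205). The other form of this subunit, Timm17b on the X chromosome, had 16.1, 11.5 and 16.9 CPM in KO and 13.6, 9.34 and 25.5 CPM in WT. Those groups overlapped, and in TPM the ratio of Timm17a to Timm17b was 3.11, 4.70 and 2.98 in KO and 2.44, 3.99 and 1.43 in WT, also with overlap.

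Other TIM23 genes differed less. Timm21 had 142, 171 and 189 CPM in KO against 137, 144 and 109 CPM in WT, and the lowest KO library lay just under the highest WT library (log2 fold change 0.37, SE 0.16, adjusted p = 0.766, edgeR). Timm23 had 434, 421 and 468 CPM in KO and 381, 451 and 280.5 CPM in WT, with overlap and WT replicate 3 lowest. For Timm50, the presequence receptor of TIM23, the log2 fold change was -0.49 (SE 0.38). The 5 TIM23 genes summed to 877, 884 and 900 TPM in KO and 782, 849 and 675 TPM in WT, so all KO sums were higher. Timm23 and Timm21 made up most of each sum, which was not tested.

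**Figure D3:**
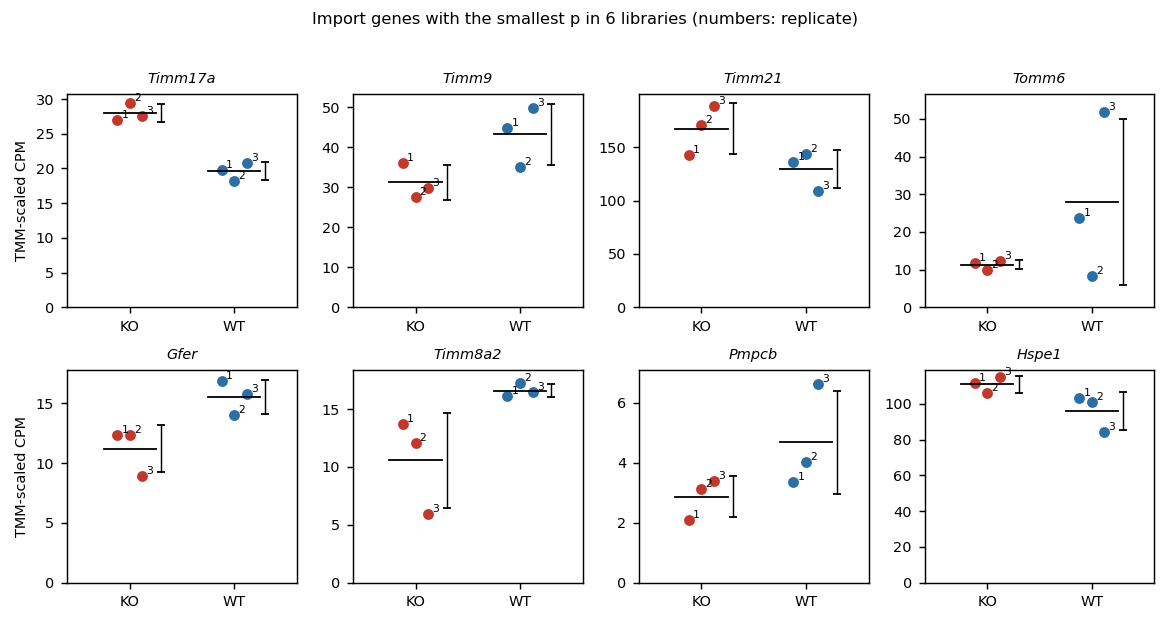
TMM-scaled CPM of the 8 import genes with the smallest p in 6 libraries; points are libraries marked by replicate number, the line is the mean and the bar the SD. For Timm17a the KO libraries lie at 27.0 to 29.5 CPM and the WT libraries at 18.2 to 20.8 CPM, while for Tomm6 and Pmpcb WT replicate 3 lies far above the rest.

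No gene of the import motor separated KO from WT in 6 libraries. Pam16 had 78.6, 70.1 and 71.4 CPM in KO and 80.7, 62.5 and 71.8 CPM in WT. Hspa9, the matrix Hsp70 that pulls the chain, had 156, 153 and 148 CPM in KO and 165, 146 and 150.5 CPM in WT, while the log2 fold change of Dnajc19, its J-domain partner, was 0.20 (SE 0.21), and 0.32 without WT replicate 3. None of the 3 separated the groups. For Timm44, which tethers the motor to the channel, it was -0.03 (SE 0.24). Grpel1, the nucleotide exchange factor of Hspa9, had 23.8, 27.4 and 30.4 CPM in KO and 18.0, 21.0 and 35.5 CPM in WT, and Grpel2, its relative, 6.88, 8.40 and 5.96 CPM in KO and 8.19, 6.66 and 15.1 CPM in WT. For each gene alone the groups overlapped. The log2 fold change of Grpel2 was -0.50 (SE 0.37) in 6 libraries and -0.07 (SE 0.29) without WT replicate 3. Within a library, however, Grpel1 had 4.01, 3.78 and 5.87 times the TPM of Grpel2 in KO and 2.54, 3.64 and 2.72 times in WT, without overlap, again one of the 14 untested ratios.

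After import, Pmpca and Pmpcb encode both subunits of the peptidase that removes presequences. Pmpcb had 2.10, 3.14 and 3.38 CPM in KO against 3.37, 4.04 and 6.62 CPM in WT, with WT replicate 3 highest and KO replicate 3 just above WT replicate 1 (edgeR log2 fold change -0.70 with SE 0.40 and adjusted p = 0.786). Leaving out WT replicate 3 gave -0.37 (SE 0.40). Pmpca had 0.307, 1.51 and 1.97 CPM in KO and 0.701, 0.632 and 3.24 CPM in WT, with overlap. Hspe1 had 112, 106 and 115 CPM in KO against 103, 101 and 84.1 CPM in WT, so every KO library was higher, by a log2 fold change of 0.21 (SE 0.12, adjusted p = 0.786, edgeR), or 0.12 (SE 0.11) without WT replicate 3. Hspd1, its partner across the shared upstream stretch, had 122, 120 and 99.4 CPM in KO and 133, 113 and 106 CPM in WT, with overlap and a log2 fold change of -0.04 (SE 0.14). The ratio of Hspe1 to Hspd1 in TPM was 2.36, 2.14 and 3.08 in KO and 1.97, 2.01 and 2.23 in WT, overlapping by 1 library. Hscb had 80.0, 69.6 and 80.8 CPM in KO and 65.9, 74.5 and 50.7 CPM in WT, with overlap (log2 fold change 0.27, SE 0.17, and 0.13 without WT replicate 3).

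The disulfide relay split into an abundant and a scarce part. Gfer, the sulfhydryl oxidase that recharges the relay, had 12.4, 12.4 and 8.95 CPM in KO against 16.9, 14.1 and 15.8 CPM in WT. All KO libraries were lower (log2 fold change -0.47, SE 0.23, adjusted p = 0.766, edgeR), and the value without WT replicate 3 was -0.46. Chchd4, the receptor and oxidoreductase of the relay, had 22, 33 and 100 counts in KO and 0, 1 and 105 counts in WT. All KO libraries thus held Chchd4 reads, WT replicates 1 and 2 held 1 read between them, and WT replicate 3 was as high as the highest KO library. In 6 libraries edgeR gave a log2 fold change of 0.77 (SE 1.54, adjusted p = 0.930). Over the 3 KO libraries and WT replicates 1 and 2 the ratio of rates was 97.4, with an exact interval of 17.2 to 3871 at 95% that covers counting error only. This ratio was computed only because WT replicates 1 and 2 held so few reads. It also pools reads over libraries and leaves out WT replicate 3, so it is no evidence of a difference between KO and WT.

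WT replicate 3, the library with the immune markers, changed the result for a group of low genes. It lay above every other library for 17 of the 37 genes and below every other library for 8, and its CPM over the mean of WT replicates 1 and 2 had a median of 1.33 for the import genes and 1.03 for all genes. Split at 5 TPM, a level chosen after values were seen, the 25 higher genes had a median ratio of 1.02 (range 0.674 to 4.28) and the 12 lower genes 3.69 (range 1.15 to 149). The same split was not computed over all genes, so the rise cannot be called particular to low import genes. WT replicate 3 held counts for 20906 genes, against 17246 to 18507 in the other libraries. KO values of several low genes lay between the pair of low WT libraries and WT replicate 3. The part of the immune RNA in these values was not tested.

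**Figure D4:**
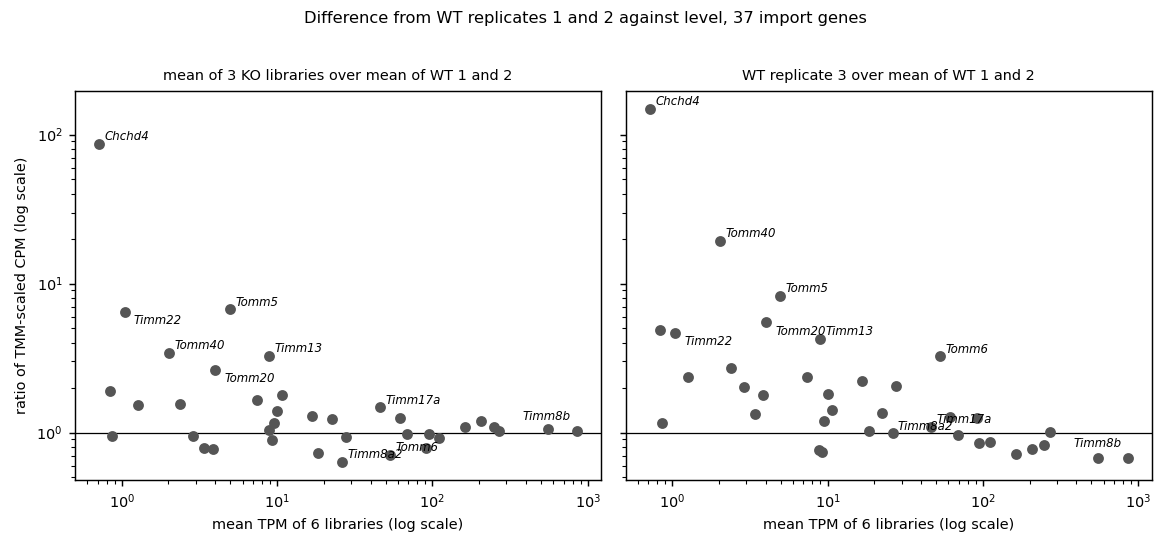
Ratio of TMM-scaled CPM to the mean of WT replicates 1 and 2 against mean TPM for the 37 tested import genes, both on log axes, for the KO mean (left) and WT replicate 3 (right). Chchd4, Tomm40, Tomm5, Tomm20, Timm22 and Timm13 lie above 1 in both panels, and in the right panel Timm8b and Timm23 lie below 1. Both panels share the same denominator, so low values in WT replicates 1 and 2 raise both ratios.

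Without WT replicate 3, again 0 of 37 genes passed edgeR, where 92 of 14122 genes did (0.651%), and the smallest adjusted p was 0.0616, for Chchd4. Without adjustment, p was under 0.05 for 7 genes higher in KO (Chchd4, Tomm20, Timm13, Tomm5, Timm17a, Grpel1 and Timm22) and for 0 lower ones, against 11.6% of all genes in either direction. Of all 14122 genes, 1084 were higher and 549 lower in KO by this measure, so higher values were also more frequent over all genes. The granulosa markers other than Cyp19a1 summed to 47.2 and 110.2 CPM in KO replicates 2 and 3, above both remaining WT libraries, and their part in these values was not tested. DESeq2 on the same 5 libraries, run after the data were seen, called 4 genes higher: Tomm20 (adjusted p = 0.00347), Chchd4 (0.0057), Timm13 (0.0339) and Tomm5 (0.0407). Over all genes it called 426 higher and 76 lower, 3.55% of 14122. limma-voom on these libraries called 0 import genes, with a smallest adjusted p of 0.183, and 0.0779% of all genes. With KO replicate 1 also left out, edgeR called Chchd4 (adjusted p = 0.0456) among 1.05% of all genes. The call therefore turned on the tool and on the libraries kept. Without WT replicate 3, Chchd4, Tomm5, Timm22 and Tomm40 passed the count filter only through the KO libraries. Their counts in WT replicates 1 and 2 were 0 and 1, 8 and 5, 9 and 1, and 9 and 7. Genes that low in WT could enter these fits only if KO was higher. Their calls and small p values here are therefore no evidence of a difference.

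Tomm20 had 11.1, 10.2 and 15.8 CPM in KO against 5.48, 3.89 and 25.7 CPM in WT, so KO lay between the WT libraries. Its log2 fold change was 0.08 (SE 0.68) in 6 libraries and 1.40 (SE 0.31) without WT replicate 3. Tomm5, a small TOM subunit, had 1.18, 2.35 and 2.43 CPM in KO and 0.35, 0.24 and 2.45 CPM in WT. WT replicate 3 equalled the highest KO libraries there, and leaving it out took the log2 fold change to 2.72 (SE 0.74), against 0.95 (SE 0.91) with it. Timm13, the partner of Timm8a1, had 3.72, 5.60 and 4.58 CPM in KO and 1.75, 1.07 and 6.04 CPM in WT, with log2 fold changes of 1.71 (SE 0.44) without WT replicate 3 and 0.64 (SE 0.64) with it.

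Tomm40 had 0.789, 1.57 and 1.41 CPM in KO and 0.394, 0.340 and 7.14 CPM in WT. Its log2 fold change changed sign with that library, at -1.07 (SE 1.15) with it and 1.75 (SE 0.82, adjusted p = 0.456, edgeR) without it. Timm22 had 0.789, 2.35 and 1.16 CPM in KO and 0.394, 0.049 and 1.03 CPM in WT, so the lowest KO library lay under WT replicate 3 (log2 fold change 1.505, SE 0.97). Timm29, a partner of Timm22, had a value of 0.08 on the same scale (SE 0.87). For Grpel1 the log2 fold change was 0.13 (SE 0.28) in 6 libraries and 0.48 (SE 0.19, adjusted p = 0.348, edgeR) without WT replicate 3. In contrast, Timm17a and Gfer kept nearly the same value in both fits.

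**Figure D5:**
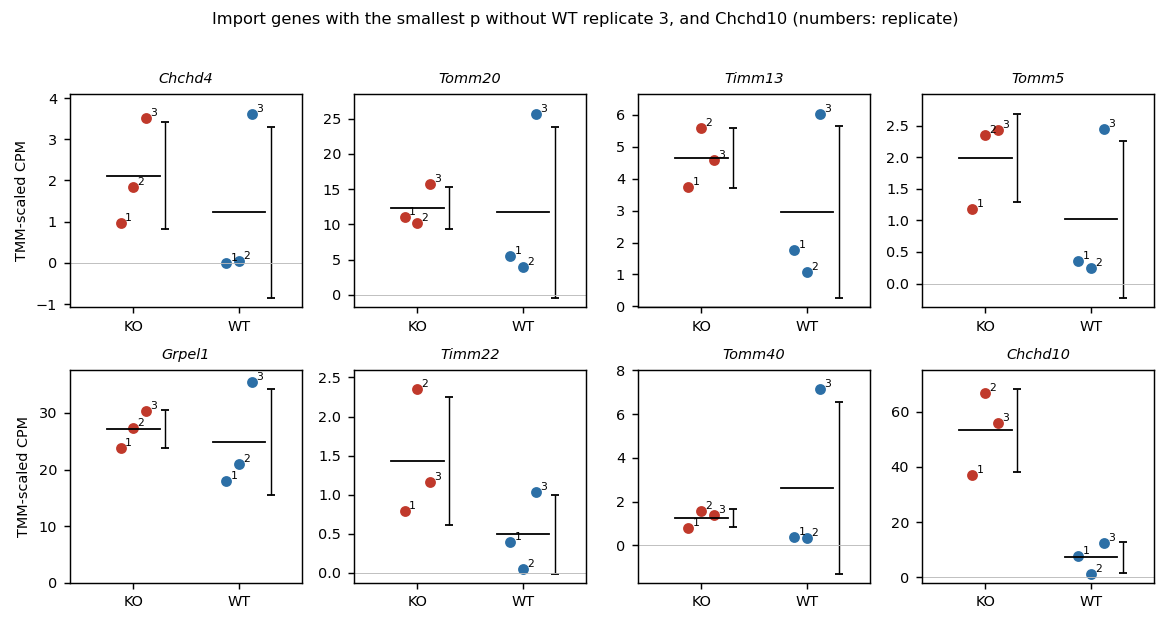
TMM-scaled CPM of 7 of the 8 import genes with the smallest p without WT replicate 3 (Timm17a is plotted with the other set), and of Chchd10; points are libraries marked by replicate number, the line is the mean and the bar the SD. WT replicates 1 and 2 lie under all KO libraries in each panel, and WT replicate 3 lies at or above the highest KO library for Chchd4, Tomm20, Timm13, Tomm5, Grpel1 and Tomm40. The import genes were chosen by p in this comparison, so the first separation was part of the choice. Of 14122 tested genes, 2173 were higher and 1853 lower in every KO library than in WT replicates 1 and 2.

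Average transcript length, which RSEM weights by isoform, was used as a sign of isoform use. Of 28 import genes with several transcripts and at least 1 TPM, 19 had group means within 5% of each other. For 2 the groups did not overlap, where 9.79% of such genes did so. Timm10b, with 11 annotated transcripts, averaged 611, 583 and 575 bases in KO against 651, 678 and 793 bases in WT, and all KO libraries were shorter. Timm10b overlaps Dnhd1 and shared reads with other genes in 3 libraries. Pam16 was the other, by about 2 bases (means of 591 in KO and 593 in WT). Tomm40 averaged 1577 bases in each KO library and 746, 1219 and 1617 bases in WT, Timm22 2348, 1178 and 2817 bases in KO and 1364, 2817 and 1131 bases in WT, and Timm13 716, 731 and 843 bases in KO and 672, 998 and 903 bases in WT. For all 3 the groups overlapped. Some of these lengths rest on very few reads. Tomm40 had 9 and 7 counts in WT replicates 1 and 2, and Timm22 had 9 and 1. Lengths from so few reads cannot show isoform use.

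Related genes outside the rule also passed no test in 6 libraries. Of 18 other genes of outer membrane insertion, inner membrane insertion and presequence processing, 0 passed (median log2 fold change 0.07), and the smallest p values were those of Mipep, an intermediate peptidase (0.41, SE 0.18), and Dnajc15, a relative of Dnajc19 (-0.57, SE 0.29). Of 16 tested mitochondrial proteases and further chaperones 0 passed (median 0.03), led by the protease subunit Afg3l2 (-0.44, SE 0.15) and the disaggregase Clpb (-0.70, SE 0.36). Of 6 genes of the MICOS complex, which shapes cristae, 0 passed (median 0.14), led by Minos1 (0.27, SE 0.12) and Chchd3 (-0.36, SE 0.15). Of 14 cytosolic chaperones and targeting factors 0 passed (median -0.24), led by Stip1 (-0.29, SE 0.15) and Dnajb1 (-0.26, SE 0.16).

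Among 21 small cysteine-motif proteins of the kind that Chchd4 imports, 0 passed in 6 libraries (median log2 fold change 0.08), with the smallest p for Chchd10 and Ndufa8, a complex I subunit (0.31, SE 0.21). Chchd10, a protein of the intermembrane space, had 37.1, 66.6 and 56.0 CPM in KO against 7.62, 1.31 and 12.5 CPM in WT. Every KO library was well above every WT library, WT replicate 3 included. By edgeR the log2 fold change was 2.89 in 6 libraries (SE 0.70, unadjusted p = 0.00413, adjusted p = 0.615), and without WT replicate 3 Chchd10 rose by 3.56 on the log2 scale (adjusted p = 0.0314, edgeR). It was the 1 gene of the 21 called in that fit, where 0.651% of all genes were called. The median of the list there was 0.47, against 0.01 over all genes tested. With WT replicate 3 the list median was 0.08, so it depended on that library.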

How the data were processed

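The oocyte libraries of messenger RNA (3 KO, 3 WT) were grouped by their titles; sperm small RNA and blastocyst methylation samples were not analysed here. Per the file headers, the authors deposited RSEM expected counts, TPM and average transcript lengths (in bases) per Ensembl gene. The submitters' processing notes name the mm10/GRCm38 build and, as tools, STAR 2.6.1c, Trim Galore 0.4.5, DESeq2 1.42.1 and RSEM 1.3.1. RSEM splits reads that match more than one gene, and 8 import genes had counts that were not whole. The annotated pseudogene copies of Hspd1, Hspe1, Hspa9 and Dnajc19 had at most 2.64 summed TPM per parent gene. The sources used here do not state strand use. The library protocol in the labels, a full-length amplification kit, describes blastocysts.

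Expected counts were rounded and tested with edgeR 4.0.16 in R 4.3.3 (quasi-likelihood, filterByExpr by group, TMM, Benjamini-Hochberg, threshold 0.05) over all 13680 tested genes, with genotype as the only term. Standard errors are log2 fold changes over the square root of F. CPM used TMM-scaled library sizes. The script was tested on simulated data. A symbol was found for 55144 IDs, and positions and promoters came from RefSeq tables of GRCm38.p6 (Python 3.11, matplotlib for figures). Values per library were given for the genes with the 8 smallest p values in each of the fits with and without WT replicate 3, the 6 highest in TPM, and 8 pairs of relatives. Transcript length was given for the 4 genes of at least 1 TPM whose group means differed most, and 2 genes were named per related list. The import genes and all lists were chosen with earlier results of these data known. Alternatives were other scalings (RLE, library totals), DESeq2 1.42.0, limma-voom of limma 3.58.1 with and without library weights, other count filters, log2 of TPM plus 1 or 0.1 (limma), no mitochondrial-genome genes, a replicate block, and leaving out each library. The 5-library DESeq2 and limma-voom fits and the fit without KO replicate 1 and WT replicate 3 were added after the data were seen.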

Additional observations from a re-analysis of the deposited data

How the results depend on the processing

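No import gene was called under any of the 17 alternatives listed at the start, and the median log2 fold change of the import genes ran from -0.03 (library totals) to 0.18 (without KO replicate 1, and limma-voom with library weights). Among fits added later, DESeq2 without WT replicate 3 called 4 import genes higher, and edgeR without KO replicate 1 and WT replicate 3 called 1. Of the genes called, Chchd4 and Tomm5 passed the count filter of these fits only through KO. limma-voom without WT replicate 3 called 0. Over all genes, edgeR on 6 libraries called 0 higher and 2 lower. For DESeq2 the counts were 81 and 20, for library weights 2 and 6, for log2 of TPM plus 1 they were 7 and 5, and for log2 of TPM plus 0.1 they were 8 and 5. Leaving out libraries gave 0 to 131 higher and 1 to 12 lower: 81 and 11 without WT replicate 3, 131 and 12 without KO replicate 1 as well, and 1 lower without KO replicate 1 alone. Without WT replicate 3, DESeq2 called 426 and 76 and limma-voom 5 and 6. Why these counts differ was not tested. Replicate numbers gave same-number correlations of 0.098, -0.108 and 0.0025, so the numbers were not treated as pairs; with a replicate block, 0 import genes were called and their median log2 fold change was 0.15. Of 520 values of the 26 genes described library by library, 34 had the opposite sign to the 6-library value, none of them called, and all belonged to 9 genes within 1 SE of 0 in 6 libraries. Library totals gave Tomm20 -0.0554 and Pam16 -0.0327. Library weights gave Tomm40 1.33, Pmpca 0.39, Timm17b 0.10 and Pam16 -0.0577. Pam16 had -0.0670 with log2 of TPM plus 1, and -0.0672 with 0.1. Tomm40 had 0.28 with the block. DESeq2 without WT replicate 3 gave Tomm40 1.77, Pmpca 0.92 and Timm17b 0.37, and limma-voom 1.64, 0.57 and 0.40 in the same order. Leaving out libraries gave Grpel1 -0.0439 to 0.57, Hspd1 -0.17 to 0.0661, Pam16 -0.0497 to 0.14, Pmpca -0.75 to 1.38, Timm10 -0.15 to 0.95, Timm17b -0.39 to 0.37, Timm8a1 -0.0357 to 0.33, Tomm20 -0.32 to 1.47 and Tomm40 -1.57 to 1.999. The median SE was 0.78 on the log2 scale for the genes below 5 TPM, against 0.23 for the others; the parts of depth and of WT replicate 3 in this were not tested.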
